A study of Mus musculus with 56 samples.

Results

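Among liver tumours driven by MYC and NICD, the intracellular part of NOTCH1, some held several times more hepatocyte RNA than others, and the report describes the 4 tumours at each end of that range. Members were chosen by measured values. The 12 tumour libraries of the AL51 and AL54 title number series were ranked by the mean of log2(TPM + 1) over Alb, Apoa1, Apoa2, Ttr and Serpina1c, called the hepatocyte score. The 4 highest are the hepatocyte-rich tumours and the 4 lowest the hepatocyte-poor tumours, 8 of 12 ranked libraries, of 26 bulk RNA-seq libraries and of 56 samples in the series. TPM, short for transcripts per 1000000, is a level corrected for gene length and scaled within each library.

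All libraries came from C57BL/6 mice, and the labels name hydrodynamic tail vein injection, a rapid injection that brings plasmid DNA into hepatocytes, and no other treatment. The 12 ranked tumours carried MYC with lucOS or luc, and NICD. The lucOS construct encodes luciferase joined to model T cell antigens, and luc encodes luciferase alone. The 4 hepatocyte-rich tumours were luc replicate 5, lucOS replicate 6, lucOS replicate 2 and luc replicate 4. The 4 hepatocyte-poor tumours were lucOS replicate 3, lucOS replicate 1, lucOS replicate 4 and luc replicate 6. In between lay luc replicate 3, lucOS replicate 5, luc replicate 2 and luc replicate 1. Compared with them were 4 lucOS and 4 luc NICD tumours of the AL75 title number series whose titles say males, and 6 healthy livers, whose labels name the same injection method but no construct. The labels of the ranked tumours give no age and no sex, and do not say how the tumours were cut from the liver or that each library is a separate animal. P-values therefore measure the spread between these libraries, which may in part be technical.

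Hepatocytes make most plasma proteins and carry out gluconeogenesis, urea synthesis, bile acid synthesis and drug metabolism, with tasks divided between cells near the portal vein and cells near the central vein. The identity of the cell is held by a network of transcription factors that includes HNF4A, CEBPA and the FOXA factors. NOTCH signalling turns liver progenitors towards the bile duct fate and can turn hepatocytes away from their own. In a bulk library, fewer hepatocytes and less hepatocyte RNA per cell cannot be told apart, and neither can RNA of tumour cells and RNA of liver tissue kept with the tumour.

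HNF4A acts on many liver promoters, and the promoters of Cyp3a11, a cytochrome of drug metabolism, and Cyp8b1, an enzyme of bile acid synthesis, are shown because they belong to the bile acid and drug list described below and hold the HNF4 letters CAAAGTCCA. Cyp3a11 lies at chr5:145879805-145880104 and Cyp8b1 at chr9:121916256-121916555, both on the minus strand (RefSeq, GRCm38.p6). Each stretch of 300 bases holds 250 bases before the annotated start and 50 after it, and capitals mark the letters.
Cyp3a11: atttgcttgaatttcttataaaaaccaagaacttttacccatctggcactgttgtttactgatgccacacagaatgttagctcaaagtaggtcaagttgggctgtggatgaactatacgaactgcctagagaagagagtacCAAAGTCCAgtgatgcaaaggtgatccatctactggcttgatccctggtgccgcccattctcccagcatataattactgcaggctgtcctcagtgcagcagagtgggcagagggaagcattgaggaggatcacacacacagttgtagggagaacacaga
Cyp8b1: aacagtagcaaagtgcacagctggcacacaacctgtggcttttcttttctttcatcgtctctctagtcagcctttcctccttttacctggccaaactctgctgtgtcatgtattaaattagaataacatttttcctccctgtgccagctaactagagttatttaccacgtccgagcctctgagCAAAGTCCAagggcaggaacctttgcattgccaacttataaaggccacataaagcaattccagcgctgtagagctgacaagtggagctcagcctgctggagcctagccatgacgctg
The letters begin 109 bases before the start of Cyp3a11 and 67 bases before that of Cyp8b1. They were searched on both strands and were in 0.475% of all 32851 promoters in the table. They were not found in the windows of the ranking genes Alb, Apoa1, Apoa2 and Serpina1c, which says only that these letters are not there.

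The score was 9.33 in luc replicate 5, 9.09 in lucOS replicate 6, 8.23 in lucOS replicate 2 and 8.15 in luc replicate 4, against 6.27 in lucOS replicate 3, 5.94 in lucOS replicate 1, 5.87 in lucOS replicate 4 and 5.17 in luc replicate 6. The ranking was a gradient rather than a set of separate groups. The last hepatocyte-rich library stood 0.17 above luc replicate 3, the first of the middle, and the first hepatocyte-poor library stood 0.42 below luc replicate 1, the last of the middle. The male tumours spanned 5.85 to 10.5 and the healthy livers 13.5 to 13.9. Even the hepatocyte-rich tumours were thus far below liver. Alb was 3267, 2762, 1461 and 1639 TPM in the hepatocyte-rich tumours and 275.0, 309.2, 222.4 and 134.5 TPM in the hepatocyte-poor tumours, in the order of rank that is kept below. Healthy liver held 88620 TPM of Alb on average. These values chose the libraries and describe them without a test.

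**Figure D1:**
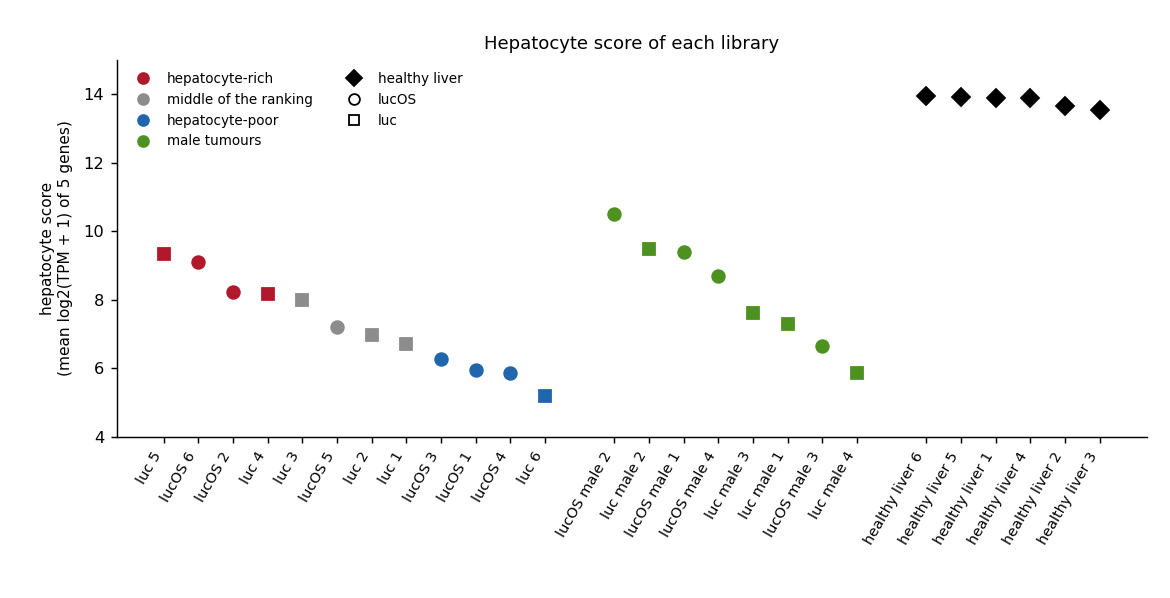
Hepatocyte score of each library, the mean of log2(TPM + 1) over the 5 ranking genes, with 1 point per library. The 12 ranked tumours run from 9.33 to 5.17 without a wide break, the 8 male tumours span 5.85 to 10.5, and all 6 healthy livers lie at 13.5 or above.

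The name hepatocyte-rich holds only relative to the other tumours. Per library, the median ranking gene stood at 1.66% to 3.69% of its healthy liver mean in hepatocyte-rich tumours and at 0.229% to 0.440% in hepatocyte-poor tumours. Without the ranking genes, the 75 genes of the 5 hepatocyte lists summed to 0.514% to 1.33% of all TPM in hepatocyte-rich tumours, 0.130% to 0.181% in hepatocyte-poor tumours and 14.6% to 15.4% in healthy liver. By this sum, luc replicate 3 of the middle, at 0.705%, lay above lucOS replicate 2 and luc replicate 4. The 12 tumours differed from healthy liver in most of the transcriptome. With limma, 10874 of 15291 genes were higher in the tumours (71.1%) and 2821 were lower (18.4%) at an adjusted p under 0.05, with a median log2 difference of 1.05. The split moved to 6715 higher against 6234 lower genes with median ratio scaling and to 7172 against 5608 with quantile normalization. Title number series differ between tumours and livers too, and the 2 cannot be told apart, nor can sex and series for the male tumours.

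Both constructs and both title number series occurred at each end of the ranking. The score averaged 7.10 ± 1.33 in lucOS tumours and 7.38 ± 1.43 in luc tumours (SD, n = 6 each), a difference of -0.28 (two-sided exact permutation test, p = 0.742). Within the AL54 series the lucOS minus luc difference was -0.44 (exact p = 0.714), and within AL51 it was -0.12 (exact p = 1.0, where the 10 arrangements allow none under 0.1). The score averaged 7.30 ± 1.62 in the 7 AL54 tumours and 7.16 ± 0.94 in the 5 AL51 tumours, a difference of 0.13 (two-sided exact permutation test, p = 0.862). Neither difference was larger than the spread within the groups. Within lucOS the AL54 minus AL51 difference was 0.02 (exact p = 1.0) and within luc it was 0.34 (exact p = 0.9). Each end of the ranking held 3 AL54 libraries and 1 AL51 library.

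Most genes overlapped between the ends, and those that did not were mostly higher in hepatocyte-rich tumours. Leaving out the ranking genes, 14353 genes reached 1 TPM in at least 4 of the 8 libraries. A gene under 1 TPM in all 4 libraries of an end could pass only through the other end. Such a gene was then separated by the filter itself. Of these, 469 (3.27%) had all 4 hepatocyte-rich tumours above all 4 hepatocyte-poor tumours, and 182 (1.27%) had all 4 below. The higher genes had a median difference of 1.49 in mean log2(TPM + 1), and the lower genes one of -0.51. A difference of at least 1 was reached by 300 of the higher and 29 of the lower genes. The median over all 14353 genes was -0.003. Since measured values chose the libraries, these counts are a description and carry no p. Any split of 8 libraries into 4 and 4 leaves some genes without overlap by arrangement alone. Whether either count, that of the lower genes above all, exceeds this share was not tested. The lower genes depended on where the ends were set, with 9 lower and 317 higher genes when the 5 highest were set against the 5 lowest tumours. When the 20 secreted proteins ranked the tumours instead, luc replicate 3 took the place of lucOS replicate 2, and there were 427 higher genes, 341 of them among the 469, and 49 lower genes, 23 of them among the 182.

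The 10 genes picked for the widest gap between the ends were mostly genes of secreted liver proteins and liver enzymes. They were picked among genes at 5 TPM or more in at least 4 of the 8 libraries. Predicted genes, pseudogenes, microRNA, snoRNA and mitochondrial genes and receptor and antibody segments were left out of this choice. Bhmt, which remethylates homocysteine with betaine, was 57.5, 71.7, 28.8 and 41.1 TPM in hepatocyte-rich tumours and 5.32, 6.32, 2.70 and 5.23 TPM in hepatocyte-poor tumours, a difference of 3.07 in mean log2(TPM + 1). Hpx, which encodes the heme carrier hemopexin, was 1366, 747.5, 410.0 and 389.2 TPM in hepatocyte-rich tumours and 84.0, 112.7, 42.7 and 42.4 TPM in hepatocyte-poor tumours (3.28). The iron hormone hepcidin, Hamp, was 25.3, 244.3, 21.5 and 18.9 TPM in hepatocyte-rich tumours and 4.62, 2.13, 3.83 and 1.22 TPM in hepatocyte-poor tumours (3.48). For Hamp, lucOS replicate 6 stood far above the other hepatocyte-rich tumours, while for Bhmt and Hpx the libraries of each end lay closer together. The bikunin precursor Ambp (3.09), prothrombin F2 (2.92), the apolipoproteins Apoc3 (2.98) and Apoa4 (2.30), urate oxidase Uox (2.91), fetuin Ahsg (2.87) and Wfdc21 (3.0) made up the 10. Apoa4 stood closest to liver, at 27.1% to 40.1% of its healthy mean in hepatocyte-rich tumours and 3.74% to 6.97% in hepatocyte-poor tumours, while Bhmt stood at 1.61% to 4.03% and 0.151% to 0.355%.

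**Figure D2:**
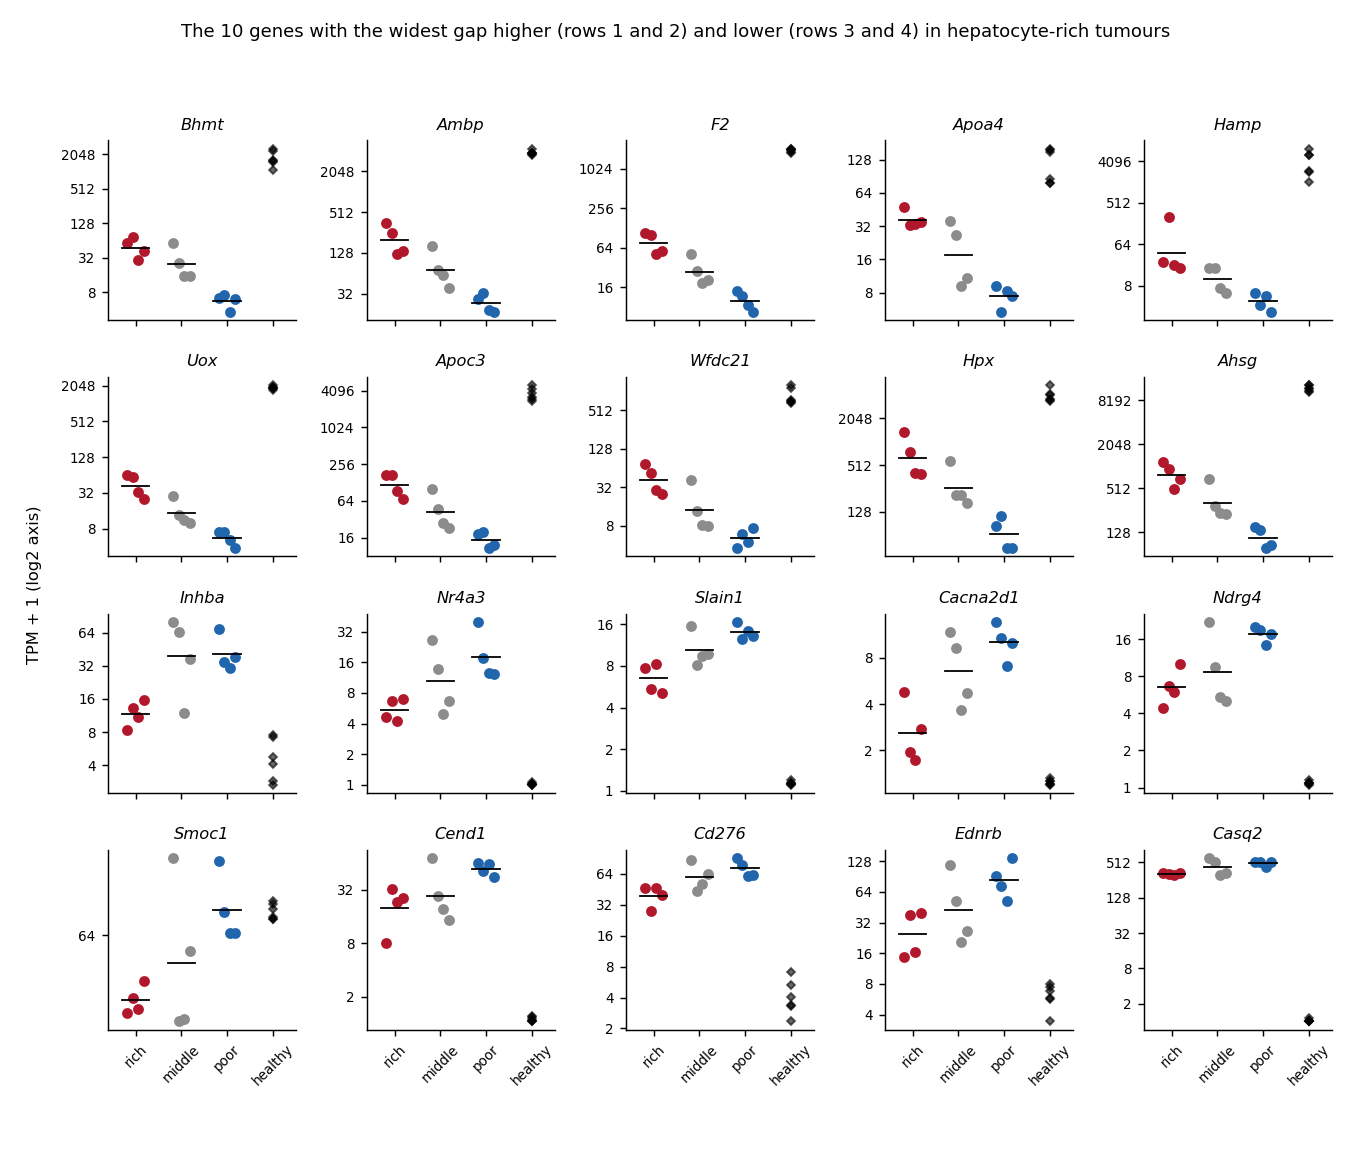
TPM + 1 on a log2 axis for the 10 genes picked for the widest gap higher (upper 2 rows) and the 10 picked for the widest gap lower (lower 2 rows) in hepatocyte-rich tumours, with 1 point per library and a line at the geometric mean of each 4 tumours. Predicted and small RNA genes, among others, were left out of the choice. Of the middle tumours, luc replicate 3 reached the level of the hepatocyte-rich tumours for Bhmt. It lay above the lowest hepatocyte-poor tumour for all 10 genes picked lower, Inhba and Ndrg4 among them.

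Secreted plasma proteins were higher across the whole list. All 20 of 20 secreted hepatocyte proteins were higher without overlap, with a median difference of 2.89 beside -0.003 over all genes. The share higher without overlap over all genes was 3.27%. Serpina3k, a serine protease inhibitor, was 430.7, 245.0, 138.9 and 120.4 TPM in hepatocyte-rich tumours and 23.6, 37.96, 17.6 and 9.77 TPM in hepatocyte-poor tumours. The fibrinogen chain gene Fga was 397.0, 314.3, 65.6 and 170.6 TPM in hepatocyte-rich tumours and 19.1, 29.5, 11.8 and 18.7 TPM in hepatocyte-poor tumours. Even the smallest difference on the list, 1.53 for vitronectin, Vtn, kept the ends apart. Acute phase proteins, which the liver releases in inflammation, were higher without overlap in 12 of 13 cases (median 2.38). Saa4 among them passed the filter only through the hepatocyte-rich tumours. Saa1, serum amyloid A, was 34.2, 15.7, 5.87 and 20.01 TPM in hepatocyte-rich tumours and 0.833, 0.396, 0.438 and 1.98 TPM in hepatocyte-poor tumours. Orm1, an orosomucoid, differed by 2.99. Saa3, which macrophages also make, overlapped (-0.20). Lcn2, the neutrophil gelatinase-associated lipocalin, was 63.1 to 146.7 TPM in hepatocyte-rich and 23.1 to 42.7 TPM in hepatocyte-poor tumours, with a healthy mean of 61.7 TPM.

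Metabolic genes of both liver zones were higher, with exceptions in each zone. Of 14 periportal genes, 10 were higher without overlap and none lower (median 2.15), beside 3.27% higher and 1.27% lower over all genes. Otc and Hal among them passed the filter only through the hepatocyte-rich tumours. Pck1, which commits carbon to gluconeogenesis, was 245.9, 94.5, 64.5 and 94.5 TPM in hepatocyte-rich tumours and 17.4, 25.9, 11.1 and 3.91 TPM in hepatocyte-poor tumours. Fbp1, a later enzyme of that pathway, differed by 3.05, and Cps1, which starts the urea cycle, by 2.83. The urea cycle was not uniform, since Otc (1.84) and Arg1 (2.54) kept the ends apart while Ass1 (0.78) and Asl (0.60) overlapped. Cyp2f2 overlapped because lucOS replicate 4, at 4.97 TPM, lay above all 4 hepatocyte-rich tumours, and the other hepatocyte-poor tumours held 0.264 to 0.662 TPM. Of 10 pericentral genes that passed the filter, 4 were higher without overlap (median 1.40), led by the ethanol-oxidising cytochrome Cyp2e1, at 108.1, 136.0, 86.7 and 60.5 TPM in hepatocyte-rich tumours and 30.6, 10.6, 9.65 and 5.83 TPM in hepatocyte-poor tumours. The other 3 were Rgn (2.82), Lect2 (2.30) and the vitamin C synthesis gene Gulo (2.13). Glul, the glutamine synthetase next to the central vein, overlapped at 77.5 to 116.7 TPM in hepatocyte-rich and 53.0 to 90.8 TPM in hepatocyte-poor tumours.

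Genes of bile acid and drug handling were higher without overlap in 12 of 13 cases (median 1.75), beside 3.27% of all genes. Among them, Cyp8b1, Abcb11 and Nr0b2 passed the filter only through the hepatocyte-rich tumours and were thereby sure to be separated. The cytochrome Cyp3a11 was 153.0, 91.5, 74.95 and 45.05 TPM in hepatocyte-rich tumours and 24.8, 19.5, 7.43 and 3.69 TPM in hepatocyte-poor tumours. Cyp2c29 was 13.5, 11.5, 5.09 and 2.76 TPM in hepatocyte-rich tumours, 0.195% to 0.952% of its healthy mean, and 0.566, 1.14, 0.248 and 0.405 TPM in hepatocyte-poor tumours, 0.0175% to 0.0806%. The bile acid importer Slc10a1 (1.79), the bile salt export pump Abcb11 (1.62) and the bile acid CoA ligase Slc27a5 (2.31) kept the ends apart, and Cyp7b1 overlapped (0.52). Cyp8b1 was 1.51 to 6.84 TPM in hepatocyte-rich and 0 to 0.467 TPM in hepatocyte-poor tumours. Cyp7a1, the rate-limiting enzyme of bile acid synthesis, was under the filter, at 0.0589 to 0.404 TPM in hepatocyte-rich and 0 to 0.106 TPM in hepatocyte-poor tumours. Genes did not share one fraction of liver. In luc replicate 5, the median percent of the healthy mean was 24.6% over acute phase proteins, 6.48% over secreted proteins, 4.16% over periportal, 2.37% over pericentral and 2.52% over bile acid genes. In luc replicate 6, at the other end, these medians were 1.66%, 0.384%, 0.181%, 0.549% and 0.0966%.

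Some transcription factors of the hepatocyte network followed the score and others did not. Of 14 such genes, 5 were higher without overlap and none lower (median 0.65), beside 3.27% higher and 1.27% lower over all genes. Hnf4a was 17.9, 13.3, 9.21 and 10.0 TPM in hepatocyte-rich tumours and 3.06, 2.70, 3.28 and 1.93 TPM in hepatocyte-poor tumours. The middle tumour luc replicate 3 held 12.03 TPM of Hnf4a and luc replicate 2 held 33.2 TPM, above all 8 libraries of the ends. The nuclear receptor genes Nr1i2 (1.42), Nr1h4 (1.07) and Nr1i3 (0.87), which sense xenobiotics and bile acids, and Foxa3 (1.32) were the other 4. Nr1i2 and Foxa3 passed the filter only through the hepatocyte-rich tumours. Cebpa was 21.2, 20.7, 23.4 and 21.7 TPM in hepatocyte-rich tumours and 32.5, 25.2, 21.3 and 12.4 TPM in hepatocyte-poor tumours, with a difference of 0. Foxa1 (1.15) and Foxa2 (0.70) overlapped too. Of the 355 higher genes with a promoter in the table, 10 (2.82%) held the HNF4 letters CAAAGTCCA, among them Cyp3a11 and Cyp8b1. Cyp2c67, Cyp2c68 and Cyp2c70, of the same gene family on chromosome 19, were also among the 10, which are thus not independent. Cyp8b1 was a gene that the filter itself separated. The letters were in 0 of the 135 lower genes with a promoter and in 51 (0.498%) of the 10245 overlapping genes with one. A match is a description of the letters, and these counts were added after the values were seen and were not tested.

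NOTCH, MYC target and proliferation genes overlapped between the ends. None of 16 NOTCH pathway genes that passed the filter kept the ends apart (median -0.06), nor did any of 20 MYC target and ribosome biogenesis genes (0.04) or 18 proliferation genes (0.08). With 3.27% of all genes higher and 1.27% lower without overlap, a count of 0 in lists of this size is near the background. Notch1, counted together with any NICD construct RNA, was 304.6, 831.1, 351.7 and 749.9 TPM in hepatocyte-rich tumours and 552.7, 448.9, 615.2 and 501.3 TPM in hepatocyte-poor tumours, with 5.93 TPM on average in healthy liver. Nrarp, a feedback target of NOTCH, was 1224 to 1675 TPM in hepatocyte-rich and 1310 to 1650 TPM in hepatocyte-poor tumours. A few NOTCH genes were high in 2 of the hepatocyte-poor tumours. Hey1 was 18.2, 43.2, 22.9 and 28.5 TPM in hepatocyte-rich tumours and 170.5, 123.2, 37.0 and 32.7 TPM in hepatocyte-poor tumours, and the NOTCH ligand Jag2 was 6.17, 7.65, 6.30 and 4.65 TPM against 53.8, 46.0, 4.88 and 5.32 TPM in hepatocyte-poor tumours. Lfng, which modifies NOTCH receptors, was 1.48, 2.996, 3.495 and 3.66 TPM in hepatocyte-rich tumours and 46.3, 22.5, 2.80 and 3.06 TPM in hepatocyte-poor tumours. For all 3, lucOS replicates 3 and 1 were high, and the other hepatocyte-poor libraries lay near the hepatocyte-rich ones. The middle tumour luc replicate 3 was high as well, with 116.0 TPM of Hey1, 38.2 TPM of Jag2 and 19.3 TPM of Lfng. Myc was 27.8 to 33.4 TPM in hepatocyte-rich and 22.7 to 28.3 TPM in hepatocyte-poor tumours, and the proliferation marker Mki67 was 74.0 to 100.4 and 51.8 to 100.3 TPM.

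Biliary and fetal liver genes also overlapped, with 0 of 10 biliary and progenitor genes (median 0.22) and 0 of 6 fetal genes (-0.14) separated, which is again near the 3.27% and 1.27% of all genes. Sox9, a factor of bile duct and progenitor cells, was 6.69, 14.2, 9.69 and 5.77 TPM in hepatocyte-rich tumours and 5.90, 4.43, 20.7 and 2.93 TPM in hepatocyte-poor tumours. The fetal growth factor gene Igf2 was 1727 to 3443 TPM in hepatocyte-rich and 1756 to 2978 TPM in hepatocyte-poor tumours. Afp, alpha-fetoprotein, was under the filter. It was 65.9 and 74.0 TPM in luc replicates 5 and 4 and 1.37 and 0.236 TPM in lucOS replicates 6 and 2 among the hepatocyte-rich tumours, and 0.115 to 0.981 TPM in hepatocyte-poor tumours. Hmga2, Igf2bp1 and Lin28b of the fetal list were under the filter as well. Hmga2 was 0.373 to 0.768 TPM in hepatocyte-rich and 0.231 to 13.2 TPM in hepatocyte-poor tumours. Igf2bp1 was at most 0.0774 TPM in hepatocyte-rich and 7.31 TPM in hepatocyte-poor tumours, and Lin28b at most 0.0468 and 2.56 TPM. WNT target genes had 1 gene in each direction and a median of -0.28. Tbx3, a T-box factor, was 37.1, 20.4, 12.01 and 14.4 TPM in hepatocyte-rich tumours and 2.55, 0.546, 3.59 and 1.12 TPM in hepatocyte-poor tumours (2.90). Lgr5, a receptor for R-spondins, was 0.275, 0.736, 0.261 and 0.537 TPM in hepatocyte-rich tumours and 1.22, 1.20, 2.26 and 5.42 TPM in hepatocyte-poor tumours (-1.14). It passed the filter only through the hepatocyte-poor tumours.

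A few genes of cells that reside in liver sinusoids were higher without overlap in hepatocyte-rich tumours, and other genes of the same 2 lists overlapped. Clec4f, a lectin that marks Kupffer cells, the macrophages of the liver, was 7.89, 19.4, 6.14 and 4.38 TPM in hepatocyte-rich tumours and 4.04, 1.20, 0.443 and 0 TPM in hepatocyte-poor tumours. Vsig4, a complement receptor of these cells, was 6.61, 12.9, 4.80 and 5.04 TPM in hepatocyte-rich tumours and 2.97, 2.26, 0.681 and 0.757 TPM in hepatocyte-poor tumours. These 2 were the genes that kept the ends apart among the 13 Kupffer cell and macrophage genes that passed the filter (median 0.03). For Clec4f the gap between the ends was narrow, at 0.09 in log2(TPM + 1). Over all genes, 3.27% were higher and 1.27% lower without overlap. Marco (1.44) and Cd5l (1.28), which Kupffer cells also express, overlapped, and Timd4 was under the filter. The general macrophage genes C1qa (-0.20), Cd68 (-0.41) and Csf1r (0.30) overlapped too. Of 12 endothelial genes 3 were higher without overlap (median 0.31), all known from liver sinusoidal endothelium. Stab2, a scavenger receptor, was 5.58, 9.90, 4.26 and 8.26 TPM in hepatocyte-rich tumours and 2.82, 2.51, 1.37 and 2.74 TPM in hepatocyte-poor tumours, and Oit3 (1.39) and the lectin gene Clec4g (1.14) were separated too. Lyve1 (0.57), another gene of sinusoidal endothelium, overlapped, as did Pecam1 (0.18) and Cdh5 (0.26), found in endothelium of any tissue. The distinction between resident and general genes was drawn after the values were seen. The part of these cells in the hepatocyte RNA was not tested.

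**Figure D3:**
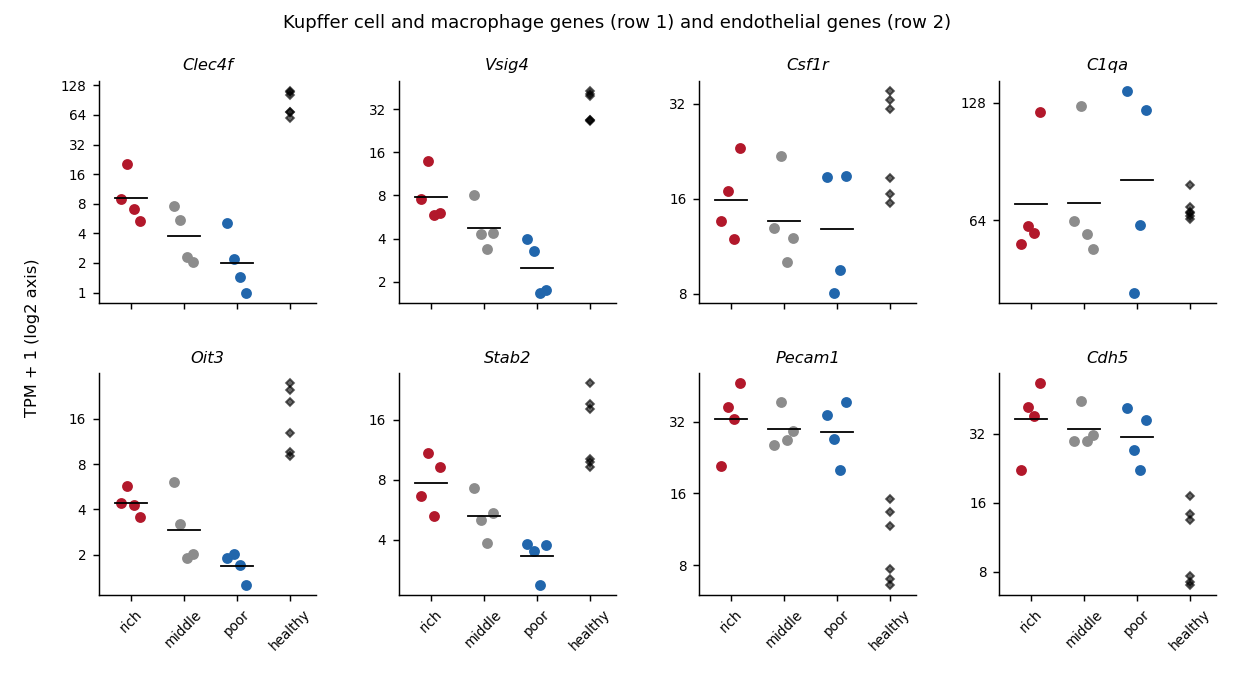
TPM + 1 on a log2 axis for 4 Kupffer cell and macrophage genes (upper row) and 4 endothelial genes (lower row), with 1 point per library and a line at the geometric mean of each 4 tumours. Clec4f, Vsig4, Oit3 and Stab2 were separated between the ends, while Csf1r, C1qa, Pecam1 and Cdh5 overlapped.

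Marker lists of other cells had few separated genes or none. Past the filter were 4 T and NK cell, 1 B and plasma cell and 4 monocyte and neutrophil genes. Counts of 0 or 1 in lists this small can hardly be told from the share over all genes, 3.27% higher and 1.27% lower. Summed over each list, T and NK cell genes gave 9.87 to 20.9 TPM in hepatocyte-rich and 11.9 to 30.6 TPM in hepatocyte-poor tumours, and B and plasma cell genes 2.17 to 4.49 and 1.15 to 3.79 TPM. The defining T cell gene Cd3e was at most 0.483 TPM in hepatocyte-rich and 0.775 TPM in hepatocyte-poor tumours. Of the T and NK cell list, Cd247 was separated by a small difference (0.19). Monocyte and neutrophil genes summed to 4.89 to 29.9 TPM in hepatocyte-rich and 2.64 to 18.99 TPM in hepatocyte-poor tumours. MHC class I (median 0.10), MHC class II (-0.09) and interferon genes (0.20) had no separated member among 15, 7 and 13 that passed the filter, and neither did 13 hypoxia and glycolysis genes (-0.04). Of 12 immediate early and heat shock genes, 1 was separated. It was Egr1, at 47.6 to 80.9 TPM in hepatocyte-rich and 33.35 to 40.43 TPM in hepatocyte-poor tumours. Red blood cell genes had a median of 1.37 with no gene separated. Hbb-bs, a beta globin, was 994.0 and 1147 TPM in luc replicates 5 and 4 and 179.3 and 287.3 TPM in lucOS replicates 6 and 2, and 124.1 to 287.2 TPM in hepatocyte-poor tumours. Lung epithelial genes summed to at most 10.8 TPM in hepatocyte-rich and 19.1 TPM in hepatocyte-poor tumours, and pancreatic acinar genes to at most 16.5 and 15.5 TPM.

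Genes lower in hepatocyte-rich tumours were not genes of one listed group. They made up 1.27% of all genes, and whether this exceeds the share left by arrangement alone was not tested. Inhba, which encodes a subunit of activin A, was 7.46, 12.2, 10.0 and 14.6 TPM in hepatocyte-rich tumours and 68.2, 33.6, 29.7 and 37.1 TPM in hepatocyte-poor tumours (-1.80). The nuclear receptor gene Nr4a3 was 3.65, 5.70, 3.19 and 5.91 TPM in hepatocyte-rich tumours and 39.0, 16.5, 11.4 and 11.2 TPM in hepatocyte-poor tumours (-1.72). Ednrb, the endothelin receptor B, was 13.6, 36.8, 15.5 and 38.9 TPM in hepatocyte-rich tumours and 90.6, 72.2, 50.9 and 135.2 TPM in hepatocyte-poor tumours (-1.76). The middle tumours held 11 to 78.98 TPM of Inhba and so reached into both ends. Cacna2d1 (-1.96), Cend1 (-1.45), Ndrg4 (-1.43), Slain1 (-1.12), the matricellular protein gene Smoc1 (-0.93), the immune checkpoint gene Cd276 (-0.88) and calsequestrin Casq2 (-0.60) made up the 10 genes picked for the widest gap. The largest gap of any lower gene was 2.2, in a gene outside that choice, beside 0.98 for Inhba. Rgs5, a gene of pericytes, was the 1 of 13 stellate cell and fibroblast genes that was lower without overlap, at 827.7, 571.8, 497.3 and 552.7 TPM in hepatocyte-rich tumours and 1486, 2386, 941.4 and 1486 TPM in hepatocyte-poor tumours (-1.31). The collagen gene Col1a1 overlapped (0.42). The matrix gene Dcn was 13.3 to 58.8 TPM in hepatocyte-rich tumours and 58.5 TPM in luc replicate 6, beside 5.75 to 13.2 TPM in the other hepatocyte-poor tumours.

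The 8 male tumours, which had no part in the ranking, were used to test the same measure. In them the log2(TPM + 1) of each gene was fitted with limma on the hepatocyte score, with construct as a term, and the slope is the change in log2(TPM + 1) per unit of score. Of 14712 genes, 397 (2.7%) had a positive slope at an adjusted p under 0.05 and 0 (0%) a negative slope. At an unadjusted p under 0.05 limma gave 1145 positive and 124 negative slopes. The score and each gene come from the same libraries, so composition of a library enters both. Leaving out lucOS male replicate 3 gave 201 positive calls, luc male replicate 2 gave 226 and lucOS male replicate 2 gave 252.

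Genes higher in hepatocyte-rich tumours mostly had positive slopes in the male tumours. Positive slopes also outnumbered negative ones among the lower and the overlapping genes. Of the 469 higher genes, 463 were tested in males and 283 were called (61.1%), with a median slope of 0.64, beside 2.7% of all genes and a median slope of 0.012. The 283 genes were 71.3% of the 397 male calls and 60.3% of the 469. Without lucOS male replicate 3, 184 of them were called. Of the 463, 386 had a positive and 77 a negative slope. Of the 182 lower genes, 179 were tested and 0 were called by limma in either direction. Of these 179, 133 had a positive and 46 a negative slope, with 6 and 2 at an unadjusted p under 0.05. Of the 13491 overlapping genes tested, 82 were called (0.608%), all with a positive slope. Among the 13491, 7191 had a positive and 6300 a negative slope, with 677 and 115 at an unadjusted p under 0.05 (limma).

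**Figure D4:**
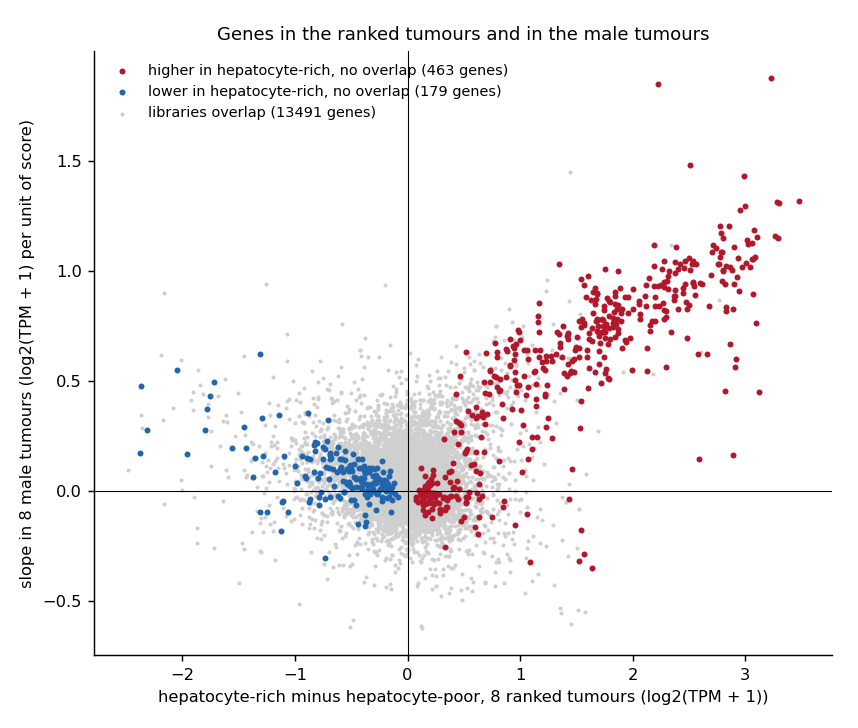
Difference between hepatocyte-rich and hepatocyte-poor tumours (x axis) and slope on the hepatocyte score in the 8 male tumours (y axis) for each gene tested in both, in log2(TPM + 1). Genes higher without overlap lie mostly at positive slopes (median 0.64), and genes lower without overlap lie about 0 (median 0.06).

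The smallest p-values in the male tumours belonged to plasma protein genes. Apoh, beta-2 glycoprotein, was 183.4, 359.4, 25.5 and 105.9 TPM in lucOS male replicates 1 to 4, whose scores were 9.39, 10.5, 6.65 and 8.70, and 46.4, 257.4, 66.6 and 19.1 TPM in luc male replicates 1 to 4, whose scores were 7.27, 9.47, 7.61 and 5.85. Its slope was 1.01 ± 0.04 (SE, limma adjusted p = 0.000102), and Serpina1d (1.14 ± 0.05) had the same adjusted p. Apoc3 (1.02), the ribonuclease gene Rnase4 (0.92) and Serpina1b (1.11) were among the next smallest. Serpina1b and Serpina1d are of the same gene family as the ranking gene Serpina1c, which is part of the score. Any sharing of reads among them was not assessed, so their slopes may not be independent of the score. Of the lists, 19 of 20 secreted proteins, 10 of 13 acute phase, 11 of 14 periportal, 4 of 11 pericentral and 10 of 13 bile acid genes were called with positive slopes, with medians of 1.03, 1.06, 0.85, 0.61 and 0.74. Over all genes tested in males, 2.7% were called with positive slopes. Vtn was the secreted protein that was not called (0.29, limma adjusted p = 0.650). Ass1, which overlapped between the ends, had a slope of 0.75 (limma adjusted p = 0.00183). Hnf4a (0.81, limma adjusted p = 0.00108), Nr1i2 (0.71), Nr1i3 (0.65) and Foxa3 (0.62) were the 4 called of 14 liver transcription factors, and Cebpa was not (0.25, limma adjusted p = 0.395). With 1 library left out, Cyp2e1 and Saa1 each lost the call in 6 of 8 fits. Foxa3 and Lect2 lost it in 3 each, and Hamp and Nr1i2 in 1 each, while Hnf4a kept it under every setting. Apoa4, one of the widest gaps between the ends, was not called in males (0.56 ± 0.14, limma adjusted p = 0.136).

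**Figure D5:**
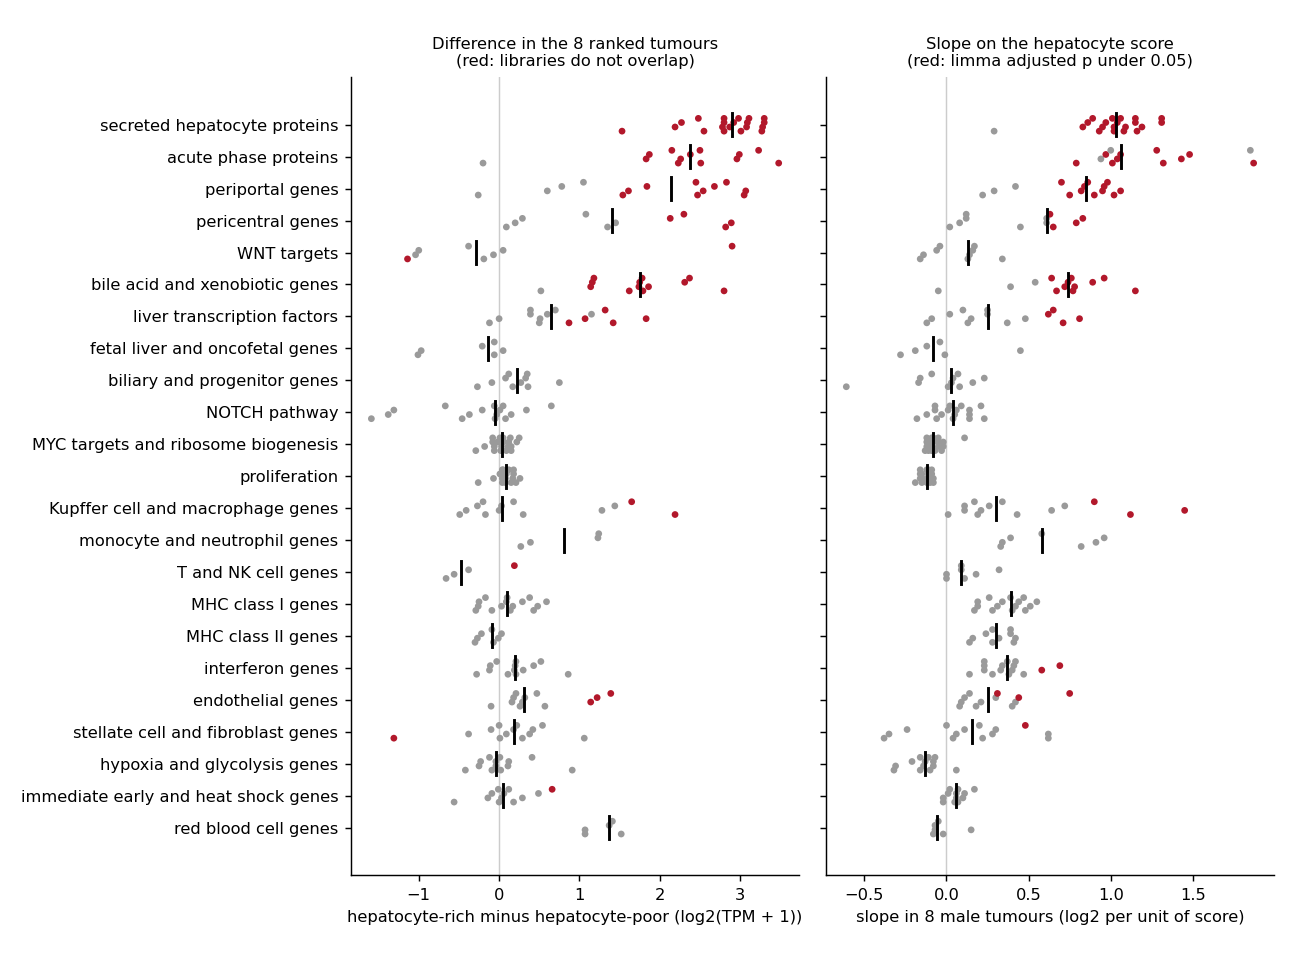
Members of each gene list with at least 4 genes past the filter, as the difference between hepatocyte-rich and hepatocyte-poor tumours (left, log2(TPM + 1)) and as the slope on the hepatocyte score in the 8 male tumours (right). Points are genes, black bars are list medians, and the hepatocyte lists lie to the right of 0 in both, while NOTCH, MYC target and proliferation genes lie about 0.

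Of the 5 Kupffer cell and endothelial genes higher without overlap in hepatocyte-rich tumours, 4 were also called in the male tumours, and Clec4g was not (0.42, limma adjusted p = 0.600). Clec4f was 23.7, 32.5, 1.46 and 10.2 TPM in lucOS male replicates 1 to 4 and 3.61, 26.7, 3.03 and 0.235 TPM in luc male replicates 1 to 4, with a slope of 1.12 ± 0.09 (SE, limma adjusted p = 0.000707). Vsig4 (0.90, limma adjusted p = 0.00902) and Marco (1.45, limma adjusted p = 0.0294) were the other 2 called of 14 Kupffer cell and macrophage genes. The general macrophage genes had slopes of 0.21 for C1qa (limma adjusted p = 0.869) and 0.43 for Csf1r (limma adjusted p = 0.516). Oit3 (0.75, limma adjusted p = 0.0122), Stab2 (0.44, limma adjusted p = 0.0434) and Kdr (0.31, limma adjusted p = 0.0276) were the 3 called of 12 endothelial genes. Marco and Kdr had overlapped between the ends. The share called over all genes tested in males was 2.7%. With 1 library left out, Stab2 lost the call in 7 of 8 fits, Marco in 6, Oit3 in 2 and Vsig4 in 1, and Clec4f kept it in all 8. Clec4f in the 12 ranked tumours had a tumour minus healthy difference of -4.37 (limma adjusted p = 7.98e-08), with 86.0 TPM on average in healthy liver. Stab2 differed by -1.46 (limma adjusted p = 0.000113).

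None of the NOTCH, MYC target, proliferation, biliary, fetal, WNT target, MHC, hypoxia, immediate early, red blood cell, T cell, B cell, monocyte and neutrophil, lung or pancreas genes tested in the male tumours was called by limma, beside 2.7% of all genes. Tbx3 had a slope of 0.16 (limma adjusted p = 0.972), and luc male replicate 4 held more of it than the other luc males although its score was the lowest of all 8. Inhba was 38.8, 37.5, 15.8 and 34.7 TPM in lucOS male replicates 1 to 4 and 34.1, 18.99, 3.26 and 8.78 TPM in luc male replicates 1 to 4, with a slope of 0.28 (limma adjusted p = 0.923), and Nr4a3 had one of 0.49 (limma adjusted p = 0.0868). Rgs5 had a positive slope of 0.62 (limma adjusted p = 0.742) where the ends differed by -1.31. Red blood cell genes had a median slope of -0.06. Of 15 interferon genes tested, Irf7 (0.58, limma adjusted p = 0.0438) and Iigp1 (0.69, limma adjusted p = 0.0428) were called with positive slopes, and of 14 stellate cell and fibroblast genes Lrat (0.48, limma adjusted p = 0.0208), the vitamin A storage enzyme of stellate cells. The calls of Irf7 and Iigp1 were each lost in 6 of 8 fits with 1 library left out and with no filter, with quantile normalization and with the score from secreted proteins, and that of Irf7 also with median ratio scaling. The 5 named genes with the smallest p among negative slopes were the sialyltransferase gene St3gal6 (-0.22, limma adjusted p = 0.0833), Mpped2 (-0.32), the glycogen phosphorylase gene Pygl (-0.24), Umod (-0.56) and Wdr93 (-0.45), none of them called. Of these, Mpped2 was higher without overlap in hepatocyte-rich tumours (1.09).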

How the data were processed

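Bulk RNA was extracted with Trizol, treated with DNase I, cleaned on RNeasy columns and made into TruSeq libraries from total RNA, per the labels' protocols. TopHat2, featureCounts, DESeq2 and the mm10 build are named in the submitters' processing notes, which state neither version nor role in what was read here. The authors deposited 1 table of TPM values for the 26 bulk libraries. Read depth is lost in TPM values and is unknown here, which leaves counting intervals out of reach. Between 16921 and 19172 genes were above 0 TPM in a library.

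Of 24063 names in the deposited table, 27 date-like names and 2 rows that share a name were left out, and 23020 matched a current and 856 an older mouse symbol. Values were used as log2(TPM + 1), a scale that understates the change of low genes. Genes were kept at 1 TPM or more in at least 4 libraries. The 4 highest and 4 lowest ranked tumours are described by overlap and by differences of means, without a test. Slopes on the score in the male tumours, with construct as a covariate, and tumours against healthy liver were fitted with limma 3.58.1 in R 4.3.3 (trend and robust options), with Benjamini-Hochberg adjustment over all genes tested. Scores were compared between groups with two-sided exact permutation tests. The scripts were tested on simulated data. Python 3.11.15 with pandas 2.3.3, numpy 2.4.6, scipy 1.17.1 and matplotlib 3.10.9 did the rest.

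The members and the 26 gene lists were chosen with earlier results of these data known. Genes were named as the 10 with the widest gap in each direction at 5 TPM or more and the 5 with the smallest male p in each direction. Predicted genes, pseudogenes, microRNA, snoRNA and mitochondrial genes and receptor and antibody segments were left out of these choices. Up to 3 of each list with the largest difference and a fixed set were named too. Other list members were named after their values were seen. Other rankings, numbers of tumours per end, scalings, filters, pseudocounts and model options were tried, and each library was left out in turn. No 2 libraries held identical values. Single-cell samples of the series were not used here. A planned search for another promoter motif is not reported here.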

Additional observations from a re-analysis of the deposited data

Results flagged for a closer look

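A single library stood apart from the rest of its group in 16 of 205 sets of values tested with Dixon's criterion. By chance the criterion flags about 1 set in 20 when values are normally distributed. Gene values were tested as TPM without a log, and the sets share libraries, so the chance rate here is unknown. Among the hepatocyte-rich tumours, lucOS replicate 6 held 244.3 TPM of Hamp, beside 18.9 to 25.3 TPM in the others, and 14.3 TPM of the interferon-induced GTPase gene Iigp1, beside 4.01 to 4.25 TPM. In luc replicate 5, Pck1 was 245.9 TPM, beside 64.5 to 94.5 TPM in the other hepatocyte-rich tumours, and Apoa4 was 47.1 TPM, beside 31.9 to 33.7 TPM.

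Among the hepatocyte-poor tumours, lucOS replicate 4 stood apart for 4 genes. It held 190.7 TPM of Umod, beside 1.11 to 8.04 TPM in the others. It held 20.7 TPM of Sox9, beside 2.93 to 5.90 TPM. Cyp2f2 was 4.97 TPM there, beside 0.264 to 0.662 TPM, and Casq2 was 426.8 TPM, beside 507.4 to 516.5 TPM. In lucOS replicate 1, Cps1 was 11.96 TPM, beside 3.11 to 4.56 TPM in the other hepatocyte-poor tumours. In luc replicate 6, Dcn was 58.5 TPM, beside 5.75 to 13.2 TPM, and Nr1i2 was 0.381 TPM, beside 0.856 to 0.948 TPM.

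Among the luc male tumours, replicate 2 stood apart for 3 genes. It held 5427 TPM of Hpx, beside 63.8 to 435.4 TPM in the others and a mean of 4085 TPM in healthy liver. Clec4f was 26.7 TPM there, beside 0.235 to 3.61 TPM, and Stab2 was 24.7 TPM, beside 5.14 to 7.55 TPM. Casq2 was 71.8 TPM in luc male replicate 3, beside 337.3 to 355.9 TPM in the other luc males. In healthy liver, replicate 4 held 0.155 TPM of Casq2, beside at most 0.0315 TPM in the other livers. No explanation was tested for these values.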

How the results depend on the processing

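Genes lower in hepatocyte-rich tumours depended on the setting most. With 3 tumours at each end, 839 genes were higher and 622 lower without overlap (1461 in all), and with 5 at each end 317 and 9 (326). Ranking by secreted proteins gave 49 lower genes. With 1 of the 8 tumours left out, 538 to 895 genes were higher and 240 to 613 lower (818 to 1508 in all), since fewer tumours overlap less often. In the male tumours, limma called 1 negative slope with median ratio scaling, 1 with quantile normalization, 1 without the trend option and 2 without the construct term. With a male tumour left out it called 201 to 436 positive and 0 to 3 negative slopes, and 184 to 294 of the genes higher without overlap. Against healthy liver, 6715 genes were higher and 6234 lower with median ratio scaling, and 7172 and 5608 with quantile normalization. With a library left out, the lucOS minus luc score difference ranged from -0.723 to 0.11, positive without luc replicate 5 (0.11). The AL54 minus AL51 difference ranged from -0.205 to 0.489, negative without luc replicate 4 (-0.007), luc replicate 5 (-0.205), lucOS replicate 1 (-0.17) or lucOS replicate 6 (-0.164). No difference or slope of a named gene changed sign while called. Of 35 named genes called in males, 22 kept the call under every setting. Depth could not be assessed.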
